A study of Mus musculus with 32 samples.

Results

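The genes described here encode 10 receptors and adaptors through which myeloid cells sense antibody and microbial products: *Fcgr1*, *Fcgr2b*, *Fcgr3*, *Fcgr4*, *Fcer1g*, *Tyrobp*, *Clec7a*, *Tlr2*, *Tlr4* and *Cd14*. They were taken by symbol from a liver RNA-seq table of 54532 genes, and each symbol matched 1 row. All 10 passed the filter on low counts in every comparison.

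Receptors for the Fc part of IgG come in activating and inhibitory forms. The activating forms (*Fcgr1*, *Fcgr3* and *Fcgr4*) carry no signalling motif of their own and pair with the common gamma chain, encoded by *Fcer1g*, whose cytoplasmic tail holds an immunoreceptor tyrosine-based activation motif (ITAM). *Tyrobp* encodes DAP12, a second ITAM adaptor, which serves receptors such as TREM2. Phosphorylated ITAMs recruit the kinase SYK. *Fcgr2b*, the inhibitory receptor, carries the opposing motif (ITIM), which recruits the phosphatase SHIP1. *Clec7a* encodes dectin-1, a receptor for fungal beta-glucan with a hemITAM of its own. *Tlr2* and *Tlr4* encode sensors of bacterial lipoproteins and of lipopolysaccharide, and *Cd14* encodes the molecule that hands lipopolysaccharide to TLR4. In liver, Kupffer cells and recruited macrophages express most of these genes, whereas *Fcgr2b* is also abundant in sinusoidal endothelial cells, where it clears immune complexes from blood.

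Livers came from 32 C57BL/6 mice aged 12 weeks, in 8 groups of 4: female and male mice, wild type (WT) or *Cyp2c70* knockout (KO), on chow or on chow with SC-435. *Cyp2c70* encodes the mouse enzyme that makes muricholic acids, so that KO mice have a more hydrophobic, human-like bile acid pool. SC-435, an inhibitor of ileal bile acid uptake, was fed at 0.006% of the diet, about 11 mg per kg per day. The labels place its start 3 weeks after weaning, whereas the study's text has the diet begin at weaning, so the length of treatment is not settled here. The KO line goes back to 1 founder made with CRISPR, in which exon 2 was deleted. Libraries held 36476021 to 44771350 counts. Levels are given as CPM, counts scaled to library size with TMM factors over the 32 libraries. *Cyp2c70* reached 271 to 838 CPM in WT and 109 to 188 CPM in KO mice, and none of the 9 hepatocyte markers in the table was at 0 in any group. Whole liver was measured, so fewer cells of a type and less RNA per cell cannot be told apart. Samples are labelled as separate mice of a group, and p-values measure the spread between them. One library stood apart. Male WT chow replicate 1 correlated with its group at 0.881, against 0.951 to 0.993 for the other 31 libraries, and had the lowest TMM factor (0.622). It held 12 counts of *Clec7a* and 4 of *Tlr4*, the lowest counts of these genes in the 32 libraries.

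Of the 10 genes, 4 lie within 276 kb of chromosome 1 in GRCm38, with *Fcgr2b* (chr1:170958617-170976547, minus strand), *Fcgr4* (chr1:171018920-171029761, plus), *Fcgr3* (chr1:171051174-171064935, minus) and *Fcer1g* (chr1:171229572-171234365, minus) in that order. *Fcgr1* (chr3:96282909-96293969, minus) and *Tlr2* (chr3:83836272-83841767, minus) are on chromosome 3. *Clec7a* (chr6:129461591-129472779, minus), which the table annotates as a polymorphic pseudogene, *Tyrobp* (chr7:30413760-30417585, plus) and *Tlr4* (chr4:66827584-66930284, plus) are each alone, and the position of *Cd14* is given with its values. *Fcgr2b* and *Fcgr3* share 166 stretches of 50 bases, 2.92% of those in *Fcgr2b* transcripts and 9.58% of those in *Fcgr3* transcripts, and reads from them cannot be assigned with certainty. No other pair of the Fc gamma receptors shared such a stretch. An antisense gene, *Gm38204*, overlaps *Fcgr2b* over 3175 bases and held 70 counts in all libraries together, against 81893 for *Fcgr2b*. Whether the counting used strand is not given in the sources used here, and without strand the reads of this pair cannot be told apart.

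The coding bases of the signalling motifs are shown because they divide these genes into adaptors, an inhibitor and a receptor that signals by itself. They were read from GENCODE vM21 transcripts (GRCm38), 5′ to 3′ on the coding strand. Capitals mark the codons of the motif's tyrosines and of its leucine or isoleucine residues. The *Fcer1g* run covers residues 65 to 79 of 86 (chr1:171229889-171230072, joined across the intron between exons 4 and 5). The *Tyrobp* run covers residues 92 to 106 of 114 (chr7:30415670-30417382, also joined across exons 4 and 5). The *Fcgr2b* run covers residues 317 to 322 of 340 (chr1:170961071-170961088, exon 8), and the *Clec7a* run residues 15 to 18 of 244 (chr6:129472632-129472643, exon 1).
Fcer1g ITAM: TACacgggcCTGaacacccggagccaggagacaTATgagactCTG
Tyrobp ITAM: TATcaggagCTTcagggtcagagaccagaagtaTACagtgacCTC
Fcgr2b ITIM: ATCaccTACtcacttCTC
Clec7a hemITAM: TATactcaaTTA
In both adaptors 7 residues lie between the first leucine and the second tyrosine of the ITAM. The ITAM pattern was found in no complete annotated protein of *Fcgr1*, *Fcgr3* or *Fcgr4*. Its only other match among the 10 genes was in *Tlr4* at residue 375, in the part of the receptor outside the cell. In *Fcer1g* 1 of the 2 complete annotated proteins held it. The shorter patterns also matched in other genes, the ITIM in *Fcgr1* and *Fcgr4* and the hemITAM in *Tlr2* and *Tlr4* among them. Such a match alone therefore does not sort the genes.

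Bases just before the RefSeq transcription start (GRCm38.p6) are shown for the genes in which the letters GAGGAA were found, the core of sites bound by the myeloid factor PU.1 (TTCCTC when it lies on the opposite strand). Both strands of windows from 250 bases before to 50 after the start were searched, for this motif only. Windows of 7 of the 10 genes were searched, without *Tyrobp*, *Tlr4* and *Cd14*, and 4 genes held a match. Of all 32851 windows of that length 28.3% did, a share that counts windows and not genes. Capitals mark the match. The pieces lie at chr3:96293999-96294044 (*Fcgr1*), chr1:171059395-171059429 (*Fcgr3*), chr1:171018884-171018925 (*Fcgr4*) and chr6:129472850-129472895 (*Clec7a*).
Fcgr1 promoter: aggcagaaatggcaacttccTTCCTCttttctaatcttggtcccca
Fcgr3 promoter: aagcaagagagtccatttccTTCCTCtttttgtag
Fcgr4 promoter: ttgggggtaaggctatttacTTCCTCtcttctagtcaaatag
Clec7a promoter: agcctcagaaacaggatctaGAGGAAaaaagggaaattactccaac
The match began 55 bases before the start in *Fcgr1*, 15 in *Fcgr3* (6 from its second listed start), 22 in *Fcgr4* and 96 in *Clec7a* (90 from its second listed start). In the windows of *Fcgr2b*, *Fcer1g* and *Tlr2* these letters did not occur.

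In 9 of the 10 genes the KO mice on chow of both sexes had the highest mean levels of the 8 groups. *Fcgr2b* was the exception, with its highest mean in female WT mice on SC-435 (69.3 CPM) and its lowest in male KO mice on chow (49.4 CPM). Its next lowest mean was that of male WT mice on SC-435 (54.0 CPM). Of the 70 pairs of groups that are neighbours in the order of means, 3 did not overlap. These were *Fcgr3* between female KO mice on chow and on SC-435, and *Clec7a* and *Cd14* between male KO mice on chow and female KO mice on SC-435. The other neighbouring pairs overlapped and could not be ordered beyond the spread between mice. Groups farther apart in the order can still be separate, as given below for female KO mice on chow.

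**Figure D1:**
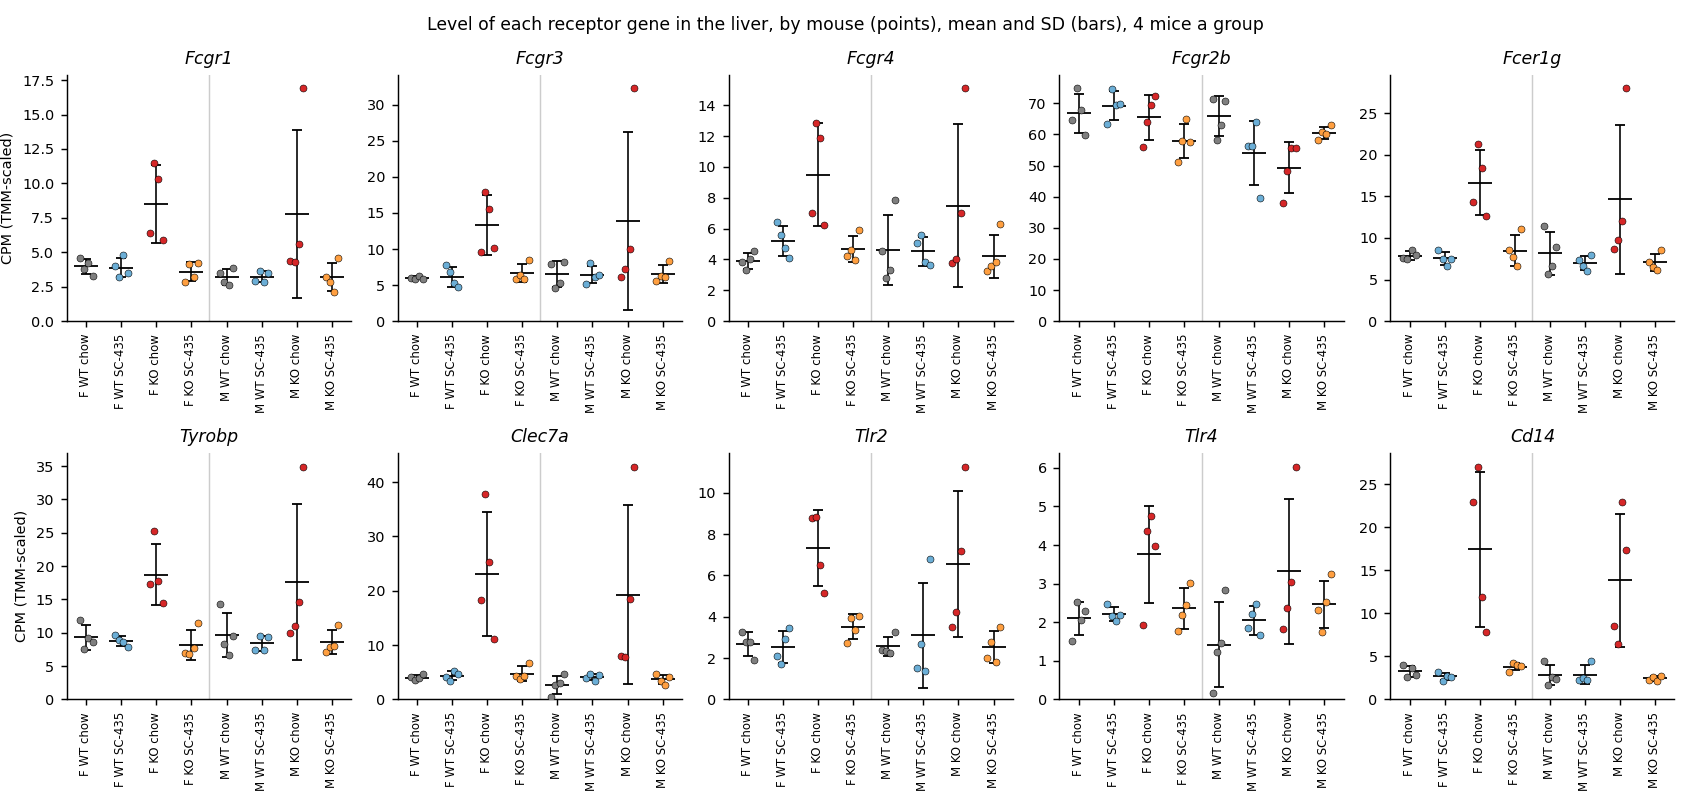
Level of each gene in CPM (vertical axis, from 0) for each mouse (points) in the 8 groups, with the mean and SD of 4 mice (bars); F and M stand for female and male. The means of KO mice on chow (red) are highest for every gene but *Fcgr2b*, with overlap between single mice in several genes. In male KO mice on chow, 1 mouse reaches 32.3 CPM of *Fcgr3* while the next reaches 10.1.

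The activating Fc gamma receptors were 2.13- to 2.40-fold higher in female KO mice on chow than in female WT mice. *Fcgr3*, the low-affinity receptor for IgG1 immune complexes, measured 5.83, 5.89, 5.92 and 6.29 CPM in the female WT mice on chow and 9.60, 10.1, 15.6 and 17.9 CPM in the KO mice. With SC-435 the KO mice measured 5.80, 5.87, 6.41 and 8.46 CPM. Every female KO mouse on chow was above every mouse of both other groups. The log2 fold change of *Fcgr3* was 1.14 ± 0.20 (SE) for KO against WT on chow (edgeR quasi-likelihood test, Benjamini-Hochberg adjusted p = 0.00559) and -1.001 ± 0.215 for KO with SC-435 against KO on chow (adjusted p = 0.0133).

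*Fcgr1*, the high-affinity receptor for IgG2, had 3.28, 3.78, 4.22 and 4.60 CPM in female WT mice on chow, 5.87, 6.37, 10.3 and 11.49 CPM in KO mice on chow and 2.81, 3.17, 4.18 and 4.25 CPM in KO mice on SC-435. It rose by a log2 fold change of 1.09 ± 0.23 (adjusted p = 0.0122) and fell by 1.24 ± 0.24 on the log2 scale with SC-435 (adjusted p = 0.00904). *Fcgr4*, which binds IgG2 immune complexes, had 3.29, 3.83, 4.01 and 4.56 CPM in female WT mice on chow, 6.26, 7.003, 11.9 and 12.8 CPM in KO mice on chow and 3.97, 4.21, 4.59 and 5.89 CPM in KO mice on SC-435. Its log2 fold changes were 1.26 ± 0.24 (adjusted p = 0.00797) and -1.02 ± 0.24 (adjusted p = 0.0189). For both receptors the KO mice on chow did not overlap with the other 2 groups. The falls of *Fcgr3* and *Fcgr4* with SC-435 lay just past the fold limit, and each was called in 3 of the 8 fits that left out 1 library.

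In males the size of the change in the same receptors turned on 1 mouse. *Fcgr3* measured 4.65, 5.35, 7.88 and 8.20 CPM in male WT mice on chow and 6.07, 7.28, 10.1 and 32.3 CPM in male KO mice on chow, where the highest value belonged to replicate 4. *Fcgr1* in these KO mice was 4.31, 4.33, 5.56 and 16.9 CPM, all above the male WT mice on chow (2.63, 2.87, 3.51 and 3.86 CPM). *Fcgr4* was 3.79, 4.05, 6.996 and 15.1 CPM in the KO mice and overlapped with the WT mice (2.82 to 7.86 CPM). Replicate 4 was again highest for both. The log2 fold changes for KO against WT on chow were 1.32 ± 0.47 for *Fcgr1*, 1.14 ± 0.53 for *Fcgr3* and 0.73 ± 0.51 for *Fcgr4*, and none passed the test (adjusted p = 0.225, 0.344 and 0.515). Without KO chow replicate 4 they were 0.57, 0.27 and 0.11. In male KO mice on SC-435 the means were 3.21 ± 1.02 CPM (SD) for *Fcgr1*, 6.53 ± 1.22 for *Fcgr3* and 4.22 ± 1.39 for *Fcgr4*, near those of male WT mice on chow (3.22 ± 0.57, 6.52 ± 1.78 and 4.63 ± 2.27).

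*Fcgr2b*, the inhibitory receptor, did not follow its activating relatives. It measured 59.96, 64.6, 67.8 and 74.8 CPM in female WT mice and 56.1, 64.1, 69.4 and 72.4 CPM in female KO mice on chow, with full overlap. The log2 fold change was -0.04 ± 0.11 (adjusted p = 0.851), with a 95% interval from -0.24 to 0.17, so that a change as large as that of the activating receptors lay outside it. The sign of this value was not stable and is given with the alternatives at the end. In males *Fcgr2b* was lower in KO than in WT mice on chow, with 38.0, 48.3, 55.6 and 55.6 CPM against 58.2, 63.1, 70.9 and 71.4 CPM and no overlap. That difference did not pass the test (log2 fold change -0.38 ± 0.18, adjusted p = 0.359). In male KO mice on SC-435 it was 58.3, 60.02, 60.9 and 63.0 CPM, above all male KO mice on chow (log2 fold change 0.30 ± 0.12, adjusted p = 0.102).

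The summed activating receptors relative to *Fcgr2b* were compared per length, as CPM per kb of gene length. The ratio of *Fcgr1*, *Fcgr3* and *Fcgr4* together to *Fcgr2b* was 0.576, 0.721, 0.738 and 0.8003 in female WT mice on chow and 1.05, 1.40, 1.87 and 2.26 in female KO mice on chow. In female KO mice on SC-435 it was 0.691, 0.882, 0.895 and 1.13. In males it was 0.601, 0.618, 0.770 and 1.02 in WT mice on chow, 1.09, 1.25, 1.41 and 3.87 in KO mice on chow and 0.696, 0.711, 0.714 and 1.061 in KO mice on SC-435. Each male KO mouse on chow lay above the male WT mice on chow and the male KO mice on SC-435, but male WT mice on SC-435 (0.694 to 1.16) overlapped with them, and 1 female KO mouse on SC-435 lay above the lowest female KO mouse on chow. The ratio is a description and was given no test.

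**Figure D2:**
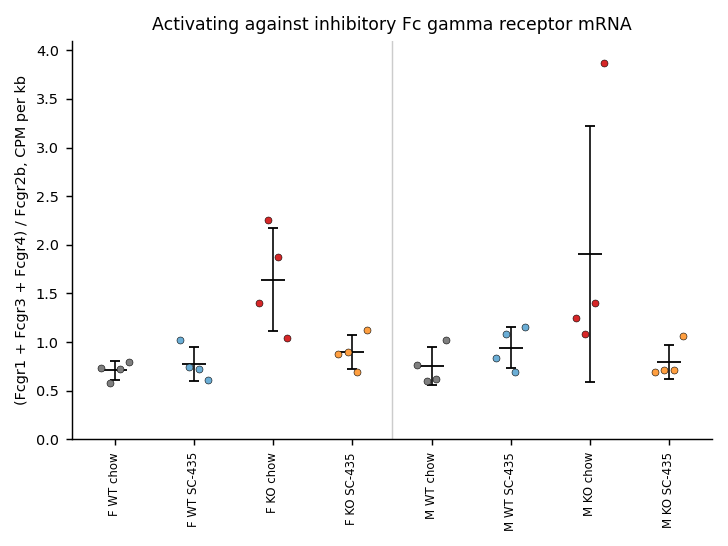
Ratio of the summed activating Fc gamma receptors (*Fcgr1*, *Fcgr3*, *Fcgr4*) to *Fcgr2b*, each as CPM per kb (vertical axis, from 0), for each mouse (points) with the mean and SD of 4 mice (bars). The 2 KO chow groups average 1.64 and 1.90, the other 6 groups 0.709 to 0.944, and 1 male KO mouse on chow reaches 3.87.

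The 2 ITAM adaptors followed the activating receptors. *Fcer1g* measured 7.45, 7.55, 7.93 and 8.60 CPM in female WT mice on chow, 12.6, 14.4, 18.4 and 21.3 CPM in KO mice on chow and 6.63, 7.70, 8.51 and 11.1 CPM in KO mice on SC-435. *Tyrobp* measured 7.62, 8.60, 9.20 and 12.0 CPM, 14.4, 17.3, 17.8 and 25.3 CPM, and 6.75, 6.92, 7.66 and 11.5 CPM in the same groups. For both adaptors every female KO mouse on chow was above all mice of the other 2 groups. *Fcer1g* rose by 1.07 ± 0.16 on the log2 scale (adjusted p = 0.00308), and its difference with SC-435 of -0.97 ± 0.19 (adjusted p = 0.0096) stayed short of the fold limit of 1. For *Tyrobp* the reverse held, with 0.99 ± 0.19 (adjusted p = 0.00851) short of the limit and a fall of 1.19 ± 0.21 with SC-435 (adjusted p = 0.00641). In male KO mice on chow *Fcer1g* was 8.73, 9.74, 12.1 and 28.0 CPM and *Tyrobp* 9.97, 10.9, 14.6 and 34.9 CPM, with replicate 4 highest for both. Neither passed the test against male WT mice (0.89 ± 0.41 and 0.91 ± 0.43, adjusted p = 0.341 and 0.354), nor with SC-435 (-1.05 ± 0.35 and -1.04 ± 0.38, adjusted p = 0.0662 and 0.0847). Without KO chow replicate 4 the log2 fold changes of *Fcer1g* and *Tyrobp* were 0.33 and 0.30 against WT mice and -0.52 and -0.47 with SC-435.

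*Clec7a* had the largest rise of the 10 genes in female KO mice. Female WT mice on chow had 3.502, 3.91, 4.11 and 4.61 CPM, KO mice on chow 11.1, 18.3, 25.3 and 37.9 CPM, and KO mice on SC-435 3.77, 4.23, 4.28 and 6.71 CPM. The lowest KO mouse on chow was above the highest mouse of both other groups. The log2 fold changes were 2.51 ± 0.32 for KO against WT (5.70-fold, adjusted p = 0.00202) and -2.28 ± 0.34 for SC-435 in KO mice (adjusted p = 0.00366). Male WT mice on chow had 0.468, 2.74, 3.00 and 4.59 CPM, the lowest in the library that stood apart, and male KO mice on chow had 7.76, 8.03, 18.5 and 42.8 CPM. These groups did not overlap either, but the log2 fold change of 2.86 ± 0.74 did not pass (adjusted p = 0.112), and without WT chow replicate 1 it was 2.51 (adjusted p = 0.0543). With SC-435 male KO mice had 2.69, 3.33, 4.16 and 4.60 CPM, a fall of 2.38 ± 0.54 (adjusted p = 0.0197). That call was kept in 4 of the 8 fits without 1 library, the fit without KO chow replicate 4 among them (-1.62, adjusted p = 0.0117).

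*Cd14*, at chr18:36725074-36726736 on the minus strand, moved nearly as far as *Clec7a*. Female WT mice on chow had 2.66, 2.83, 3.59 and 4.01 CPM, KO mice on chow 7.84, 11.9, 22.9 and 27.0 CPM, and KO mice on SC-435 3.20, 3.84, 3.95 and 4.18 CPM. All 4 KO mice on chow were above the other 8 mice. The log2 fold changes were 2.40 ± 0.36 (5.29-fold, adjusted p = 0.00308) and -2.20 ± 0.345 (adjusted p = 0.00437). Male WT mice on chow had 1.72, 2.39, 2.63 and 4.48 CPM and male KO mice on chow 6.38, 8.55, 17.4 and 23.0 CPM. Here replicate 4 of the KO mice was not the highest. The log2 fold change of 2.35 ± 0.47 missed the threshold (adjusted p = 0.0542) and passed it without WT chow replicate 1 (2.64, adjusted p = 0.0210). With SC-435 male KO mice had 2.09, 2.26, 2.65 and 2.73 CPM, a log2 fold change of -2.501 ± 0.383 (adjusted p = 0.00472) that was called in each of the 8 fits without 1 library.

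Of the 2 Toll-like receptors, *Tlr2* changed more than *Tlr4*, the partner of *Cd14*; this difference between genes was not tested. *Tlr2* measured 1.90, 2.77, 2.80 and 3.26 CPM in female WT mice on chow, 5.15, 6.52, 8.80 and 8.85 CPM in KO mice on chow and 2.71, 3.38, 3.95 and 4.02 CPM in KO mice on SC-435. The female KO mice on chow did not overlap with the others, and the log2 fold changes were 1.44 ± 0.22 (adjusted p = 0.00351) and -1.06 ± 0.20 (adjusted p = 0.00868). In males *Tlr2* was 2.25, 2.35, 2.38 and 3.27 CPM in WT mice on chow, 3.498, 4.24, 7.18 and 11.3 CPM in KO mice on chow and 1.82, 1.996, 2.77 and 3.49 CPM in KO mice on SC-435. The rise did not pass the test (1.39 ± 0.39, adjusted p = 0.138). The fall with SC-435 did (-1.37 ± 0.38, adjusted p = 0.0382), but only 2 of the 8 fits without 1 library kept it.

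*Tlr4* had the lowest level of the 10 genes per length in all 8 groups. Female WT mice on chow had 1.53, 2.06, 2.30 and 2.51 CPM and KO mice on chow 1.93, 3.98, 4.36 and 4.76 CPM, with overlap. Neither its difference between KO and WT mice (0.83 ± 0.28, adjusted p = 0.0710) nor that with SC-435 (-0.67 ± 0.27, adjusted p = 0.119) passed the test. In male KO mice on chow it was 1.83, 2.37, 3.04 and 6.03 CPM, and the log2 fold changes were 1.24 ± 0.69 (adjusted p = 0.424) against WT mice and -0.43 ± 0.37 (adjusted p = 0.432) with SC-435. Male WT chow replicate 1 held 4 counts of *Tlr4*, and without it the first value was 0.87.

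Counted together, 7 of the 10 genes were called higher in female KO than in female WT mice on chow, with the thresholds of adjusted p below 0.05 and more than 1 on the log2 scale. These were *Fcgr1*, *Fcgr3*, *Fcgr4*, *Fcer1g*, *Clec7a*, *Tlr2* and *Cd14*, and 5.67% of all 16205 genes tested were called in that direction. By adjusted p alone 8 genes passed (9.83% of all genes), and in 8 the 2 groups did not overlap (12% of all genes), *Tyrobp* being added in both cases. The median log2 fold change of the 10 genes was 1.12, against -0.02 over all genes. Without KO chow replicate 2, which was highest for 8 of the 10 genes, 4 were called (*Fcgr1*, *Fcgr3* and *Fcer1g* were lost). Over all genes that fit called 632 higher, against 919 with all mice. In this comparison 5 of 14 macrophage markers and 5 of 6 general leukocyte markers were called higher too, and their part in the result was not tested.

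With SC-435, 7 of the 10 genes were called lower in female KO mice than in KO mice on chow (3.7% of all genes). They differed from the list above in that *Tyrobp* was called and *Fcer1g* was not. By adjusted p alone 8 genes were lower (9.23% of all genes) and in 8 the groups did not overlap (10.8% of all genes). The 10 genes had a median log2 fold change of -1.04. Both comparisons use the 4 KO mice on chow, so the second is not independent of the first. Fits without 1 library called 4 to 8 genes, the fewest without KO chow replicate 2 or KO SC-435 replicate 1. Over all genes those fits called 325 and 389 lower, against 604 with all mice and 919 without KO chow replicate 4.

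In males 0 of the 10 genes were called between KO and WT mice on chow (0.914% of all genes were called higher), although 9 of 10 log2 fold changes were above 0 and their median was 1.19. Without KO chow replicate 4 the median was 0.45, and that for SC-435 in male KO mice was -0.50, against -1.07 with all mice. Without WT chow replicate 1, the library that stood apart, the median for KO against WT on chow was 1.18. That fit called 1 of the 10 genes (*Cd14*), and over all genes it called 522 higher, against 145 with all mice. With all mice, 4 of the 10 genes had an unadjusted p under 0.05, and DESeq2 called 3 (*Clec7a*, *Tlr2* and *Cd14*) and voom 2. Over all genes DESeq2 called 698 higher and voom 764, against 145 with edgeR. In 4 genes every KO mouse was above every WT mouse (*Fcgr1*, *Clec7a*, *Tlr2* and *Cd14*), against 7.9% of all genes. With SC-435, 3 of the 10 genes were called lower in male KO mice (*Clec7a*, *Tlr2* and *Cd14*, against 4.57% of all genes), and in 4 the groups did not overlap (*Fcer1g* being added, against 12.4%). DESeq2 called 6 of the 10 genes lower, and 1023 over all genes, against 730 with edgeR. Without KO chow replicate 4, edgeR called 2 of the 10 genes lower, and 500 over all genes.

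The difference between the sexes was tested directly. None of the 10 genes differed between females and males in KO against WT on chow (edgeR called 0, against 0.0235% of all genes, with 0 genes at an unadjusted p under 0.05 and 0 called by DESeq2). None differed in KO with SC-435 against KO on chow (0 called, against 0.211% of all genes, with 1 gene at an unadjusted p under 0.05 and 0 called by DESeq2). The intervals are wide, so these values do not show that the sexes responded alike. For *Clec7a* the female minus male difference in KO against WT had a 95% interval from -1.86 to 1.25 on the log2 scale, and for *Cd14* from -1.08 to 1.29. The gene with the unadjusted p under 0.05 was *Fcgr2b*, whose response to SC-435 in KO mice was lower in females by 0.49 on the log2 scale (95% interval -0.80 to -0.19, adjusted p = 0.203).

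**Figure D3:**
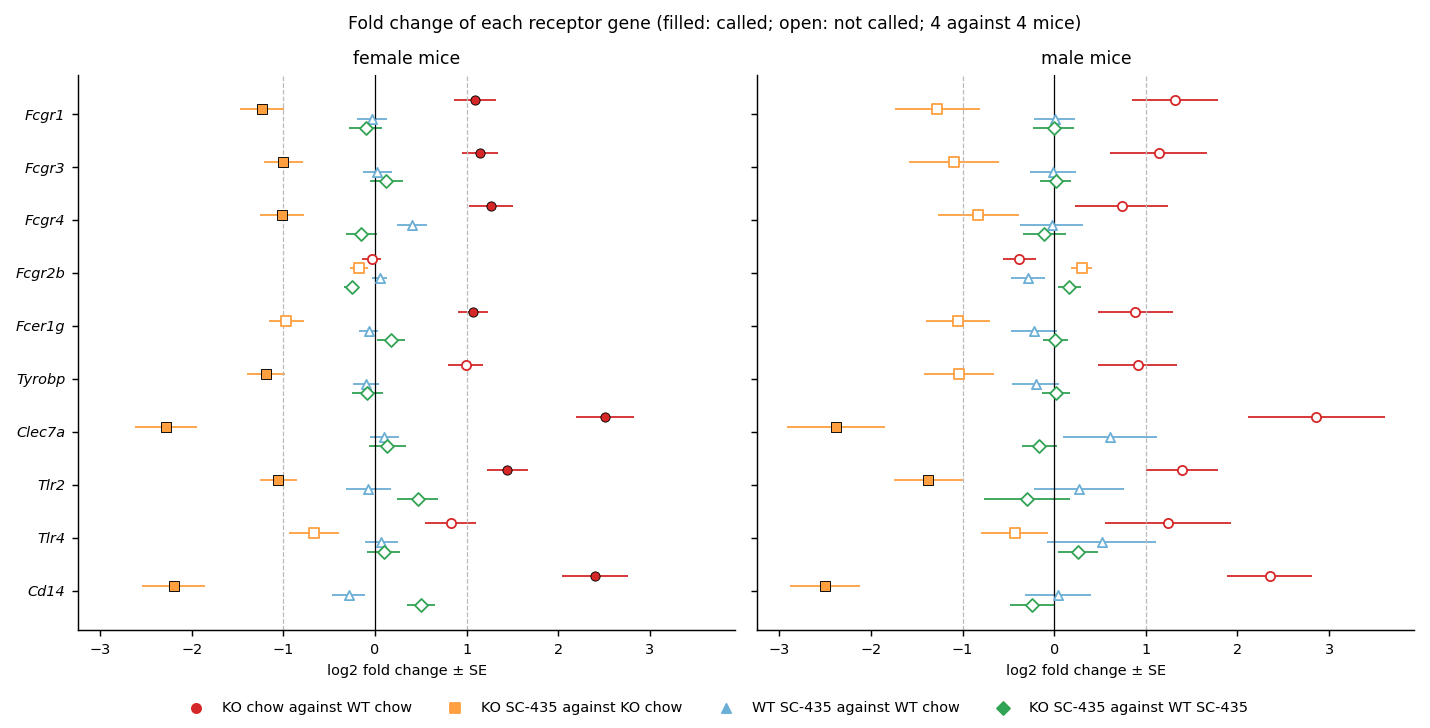
Log2 fold change with its SE (horizontal axis) of each gene in 4 comparisons in female (left) and male (right) mice, 4 against 4 mice each; filled symbols were called, open symbols were not, and dashed lines mark the fold limit. Values for KO chow against WT chow lie right of 0 and values for SC-435 in KO mice left of 0 in both sexes, except for *Fcgr2b*, while the comparisons within WT mice and under SC-435 lie near 0 with male errors up to 0.60.

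SC-435 did not detectably change these genes in WT mice. In females 0 genes were called (1.1% of all genes), with log2 fold changes from -0.29 (*Cd14*) to 0.40 (*Fcgr4*), 1 unadjusted p under 0.05 and 0 calls by DESeq2 or voom. In males 0 were called (0.0394% of all genes), with values from -0.29 (*Fcgr2b*) to 0.61 (*Clec7a*), 0 unadjusted p under 0.05 and 0 calls by DESeq2 or voom. This male fit includes WT chow replicate 1, the library that stood apart, and called 2 genes higher and 4 lower over all genes. Without that library 105 were called higher and 55 lower, with 0 of the 10 genes among them. Between KO and WT mice that both received SC-435, 0 of the 10 genes were called in females (2.56% of all genes), with 2 unadjusted p under 0.05 and 0 calls by DESeq2 or voom. The largest difference in that comparison was *Cd14* (0.50 ± 0.15, adjusted p = 0.0598), with 3.20 to 4.18 CPM in KO and 2.17 to 3.20 CPM in WT mice, and *Fcgr2b* had -0.25 ± 0.08 (adjusted p = 0.0697). In males 0 were called (0.0259% of all genes), with 0 unadjusted p under 0.05 and 0 calls by DESeq2 or voom, and for *Clec7a* the 95% interval of the difference ran from -0.53 to 0.21.

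Whether the effect of SC-435 depended on genotype was tested with the interaction of the 2 factors. In females 6 of the 10 genes were called (2.64% of all genes), each with a more negative log2 fold change for SC-435 in KO than in WT mice (in WT mice that of *Fcgr4* was 0.40 and that of *Clec7a* 0.10). The differences were -2.39 ± 0.41 for *Clec7a* (adjusted p = 0.0152), -1.91 ± 0.42 for *Cd14*, -1.43 ± 0.31 for *Fcgr4* (adjusted p = 0.0278 for each), -1.21 ± 0.31 for *Fcgr1*, -1.09 ± 0.27 for *Tyrobp* and -0.91 ± 0.23 for *Fcer1g* (adjusted p = 0.0487, 0.0436 and 0.0484). *Clec7a* alone was called in all 16 fits that left out 1 library, and the number of the 10 genes called ranged from 1 to 8. Over all genes these fits called from 22 higher and 46 lower (without KO SC-435 replicate 2) to 790 and 854 (without KO chow replicate 4). With all mice 145 were higher and 300 lower. In males 0 were called (0.0906% of all genes), with 5 unadjusted p under 0.05 and 2 genes called by DESeq2. Over all genes DESeq2 called 144 higher and 213 lower in this test, against 2 and 13 with edgeR. *Cd14* came nearest (-2.57 ± 0.54, adjusted p = 0.0827).

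Per kb of gene length, *Tyrobp* had the highest level of the 10 genes in all 8 groups, and *Fcgr2b* was second in the 6 groups other than KO mice on chow. In female WT mice on chow *Tyrobp* had 14.0 ± 2.8 CPM per kb (SD, n = 4), *Fcgr2b* 11.53 ± 1.08, *Fcer1g* 9.02 ± 0.59 and *Fcgr3* 3.45 ± 0.12. In female KO mice on chow *Fcer1g* (19.1 ± 4.5) stood above *Fcgr2b* (11.3 ± 1.2), and *Cd14* (11.1 ± 5.7) and *Clec7a* (8.78 ± 4.33) stood above *Fcgr3* (7.67 ± 2.37) and *Fcgr4* (7.55 ± 2.65). The SDs of the last 4 exceed the gaps between them.

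Markers of several cell types, though not of all, moved with these genes. The summed CPM of 14 macrophage and Kupffer cell markers, none of which is among the 10 genes, averaged 623 ± 57 in female WT mice on chow, 1160 ± 201 in KO mice on chow and 628 ± 123 in KO mice on SC-435, and no marker was at 0. In male KO mice on chow it ran from 566 to 2010, against 453 to 834 in male WT mice on chow. Its highest male value belonged to KO chow replicate 4, and the other 3 male KO mice on chow had 566 to 824. Monocyte markers (6 genes) averaged 19.4 ± 5.3 CPM in female and 21.3 ± 18.9 CPM in male KO mice on chow and 5.96 to 8.97 CPM elsewhere. In the males replicate 4 had 49.2 CPM and the other 3 had 9.01, 10.4 and 16.8 CPM. Neutrophil markers (11 genes) averaged 9.24 ± 3.22 CPM in female and 8.42 ± 4.47 CPM in male KO mice on chow, where replicate 4 had 15.1 CPM and the others 5.55 to 6.79, against 2.57 to 4.02 elsewhere. Dendritic cell markers (7 genes) averaged 26.3 ± 4.7 and 22.6 ± 7.7 CPM in female and male KO mice on chow, against 11.7 to 16.1 elsewhere. T cell markers (8 genes) averaged 5.81 ± 1.88 and 4.80 ± 1.83 CPM in the same 2 groups, against 2.98 to 5.07 elsewhere. NK cell markers (7 genes) averaged 3.42 ± 0.78 and 1.37 ± 0.45 CPM, against 1.14 to 2.16. B and plasma cell markers (7 genes) averaged 4.42 ± 2.97 and 2.51 ± 0.54 CPM, against 2.01 to 3.24. For these lymphocyte lists the male KO mean on chow lay within the range of the other groups. Of the neutrophil markers, *Ly6g* was at 0 in both female groups on SC-435, *Ngp* and *Camp* in male WT mice on chow and *Ltf* in male KO mice on SC-435. Stellate cell markers (8 genes) averaged 658 ± 240 and 639 ± 358 CPM in the 2 KO chow groups, against 210 to 413 elsewhere, and cholangiocyte markers (8 genes) 225 ± 82 and 499 ± 483 CPM against 31.3 to 119. Male KO chow replicate 4 was again highest of its group, at 1124 and 1185 CPM, and the others had 360 to 694 and 146 to 494 CPM. Hepatocyte markers went the other way in females, from 113946 ± 11145 CPM in WT mice on chow to 73575 ± 9849 CPM in KO mice on chow and 97815 ± 6131 CPM in KO mice on SC-435. In males they averaged 113817 ± 50364, 76993 ± 12814 and 81208 ± 9564 CPM in the same groups, and 71912 ± 5311 CPM in WT mice on SC-435. Male WT chow replicate 1, the library that stood apart, had 189191 CPM of them, and the other 3 male WT mice on chow had 84279 to 92542 CPM. The macrophage markers with the largest female change were *Lyz2* (60.1 ± 9.2 to 170 ± 45 CPM, log2 fold change 1.49 ± 0.19, adjusted p = 0.0019), *Marco* (1.48 ± 0.27, adjusted p = 0.00729) and *Cd68* (1.25 ± 0.17, adjusted p = 0.00226). The part of these cells in the results was not tested.

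Set against the macrophage marker sum, *Clec7a*, *Cd14*, *Tlr2*, *Fcgr1*, *Fcgr3*, *Fcer1g* and *Tyrobp* had higher means in both KO chow groups than in any other group. For *Fcgr4* this held in female but not in male KO mice on chow, and for *Tlr4* in neither. *Fcgr4* averaged 0.7999% of that sum in female and 0.724% in male KO mice on chow, and 0.634% to 0.749% in the other groups. *Fcer1g* averaged 1.43% and 1.48% in KO mice on chow against 1.07% to 1.36%, *Fcgr3* 1.13% and 1.26% against 0.876% to 1.12%, *Fcgr1* 0.719% and 0.737% against 0.491% to 0.636%, and *Tyrobp* 1.61% and 1.74% against 1.25% to 1.55%. *Clec7a* and *Cd14* had the widest gaps. *Clec7a* averaged 1.92% and 1.75% of the sum in KO mice on chow and 0.477% to 0.751% elsewhere, and no KO mouse on chow (1.11% or more) overlapped with any other mouse (0.932% or less). *Cd14* averaged 1.496% and 1.54% against 0.385% to 0.618%, again with no overlap (0.783% or more against 0.757% or less). *Tlr2* averaged 0.640% and 0.676% against 0.370% to 0.567%, and *Tlr4* 0.321% and 0.340% against 0.245% to 0.421%.

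*Fcgr2b* went the other way, with 5.76% and 5.92% of the macrophage marker sum in KO mice on chow and 8.44% to 11.0% elsewhere. Against the summed level of 10 sinusoidal endothelial markers it varied less, at 12.3% and 11.9% in KO mice on chow and 10.4% to 11.1% elsewhere. That marker sum averaged 627 ± 46 CPM in female WT mice on chow and 536 ± 77 in KO mice, and 610 ± 143 and 412 ± 36 CPM in the male groups. These shares are descriptions of bulk RNA and were given no test.

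**Figure D4:**
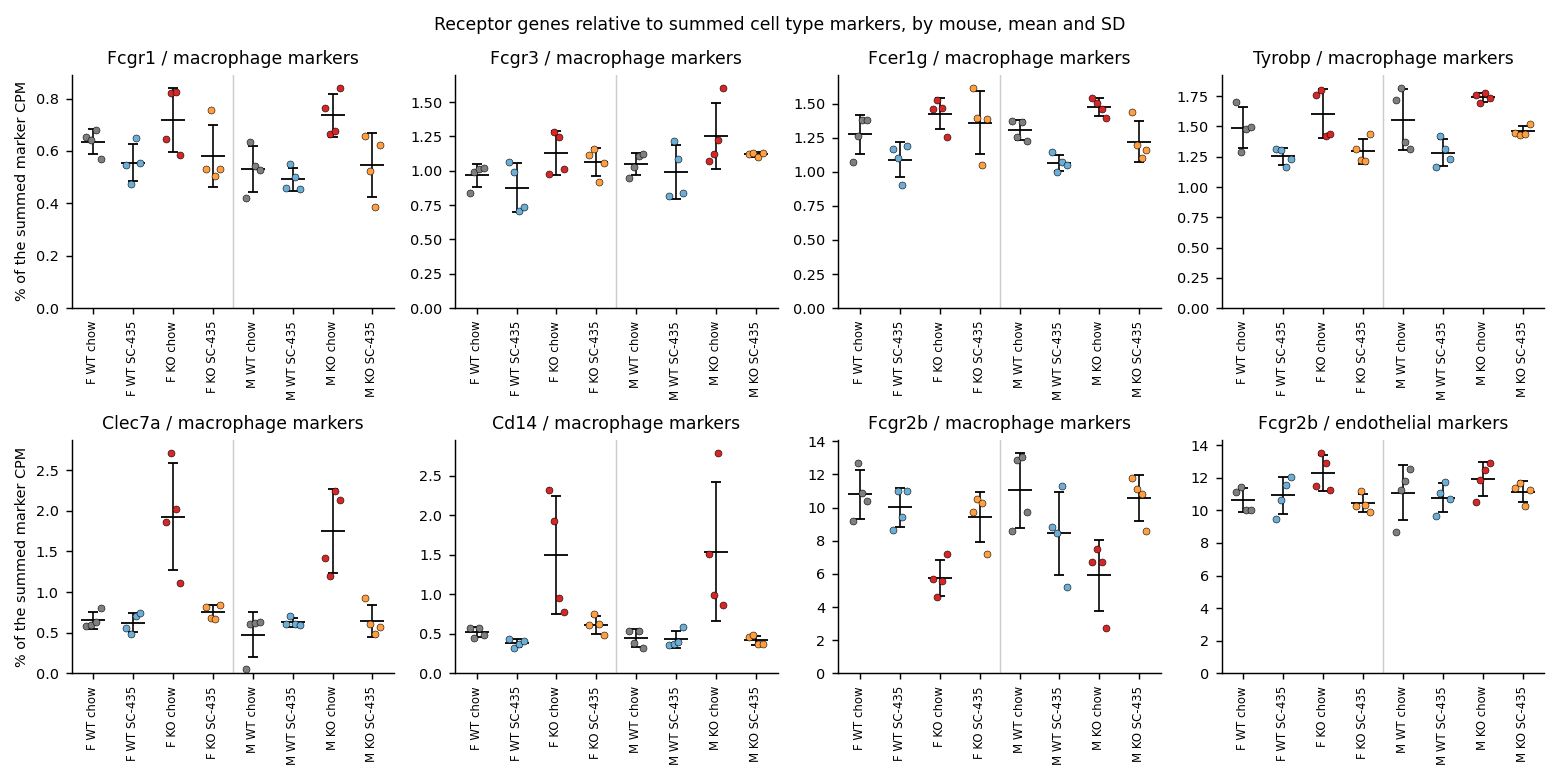
Level of 7 of the genes as a percentage of the summed CPM of macrophage markers (and, last panel, of *Fcgr2b* relative to sinusoidal endothelial markers), for each mouse (points) with the mean and SD of 4 mice (bars). *Clec7a* and *Cd14* are separate in KO mice on chow (red), and the mean of *Fcgr2b* is lowest there against macrophage markers. Against endothelial markers its group means run from 10.4% to 12.3%, highest in KO mice on chow.

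Other genes of these pathways were counted over whole lists. Of 22 other ITAM-coupled, inhibitory and C-type lectin receptors, 16 were tested in females on chow, and KO mice had 10 called higher and 0 lower (5.67% and 1.01% of all genes). *Trem2*, a lipid-sensing receptor that signals through DAP12, rose from 0.743 ± 0.159 to 5.70 ± 2.52 CPM (log2 fold change 2.93 ± 0.33, adjusted p = 0.00155), *Cd300lb* from 0.857 ± 0.281 to 4.47 ± 1.77 CPM (2.37 ± 0.32, adjusted p = 0.00226) and *Clec4n*, which encodes dectin-2 and pairs with the common gamma chain, from 1.49 ± 0.56 to 5.87 ± 2.001 CPM (1.97 ± 0.31, adjusted p = 0.00384). *Clec4a2*, an inhibitory lectin receptor, rose by 1.68 ± 0.25 on the log2 scale (adjusted p = 0.00317). In KO mice on SC-435, 9 of 17 were called lower than in KO mice on chow (3.7% of all genes), *Trem2* by 2.59 ± 0.36 on the log2 scale. *Trem2* was also called in males, higher in KO mice by 4.30 ± 0.63 (adjusted p = 0.0219) and lower with SC-435 by 3.79 ± 0.59 (adjusted p = 0.00506). In all, 2 of 17 were called higher in male KO mice on chow (0.914% of all genes) and 6 of 16 lower with SC-435 (4.57% of all genes).

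Of the 16 genes that act downstream of ITAMs and ITIMs, 7 were called higher in female KO mice on chow (5.67% of all genes) and 6 lower with SC-435 (3.7% of all genes). *Syk* rose from 6.64 ± 0.65 to 16.4 ± 3.4 CPM (1.30 ± 0.15, adjusted p = 0.00168) and fell to 7.29 ± 1.81 CPM (-1.17 ± 0.20, adjusted p = 0.00554). The adaptor *Blnk*, the kinase *Fgr* and the exchange factor *Vav1* rose by 1.90 ± 0.31, 1.29 ± 0.21 and 1.18 ± 0.18 on the log2 scale. In males 0 of 16 were called higher on chow (0.914% of all genes) and 3 lower with SC-435 (4.57% of all genes).

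Of 18 other Toll-like and pattern receptors and co-receptors, 9 were called higher in female KO mice on chow (5.67% of all genes), *Tlr1* the most (0.841 ± 0.178 to 4.35 ± 1.61 CPM, log2 fold change 2.36 ± 0.29, adjusted p = 0.00188). *Tlr1*, the partner of *Tlr2*, was lower with SC-435 by 1.94 ± 0.37 (adjusted p = 0.00888). The nucleic acid sensors *Tlr9* and *Tlr8* and the receptor homologue *Cd180* had log2 fold changes of 1.77 ± 0.36, 1.57 ± 0.30 and 1.55 ± 0.22. With SC-435, 7 of the 18 were called lower and 2 higher in female KO mice (3.7% and 2.11% of all genes). On chow, 0 of 17 were called higher and 1 was called lower in male KO mice (0.914% and 0.132% of all genes), and with SC-435 1 of 18 was lower and 2 were higher (4.57% and 1.88% of all genes).

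Of 20 signalling genes downstream of the Toll-like receptors, 2 were called higher in female KO mice on chow (5.67% of all genes), and the list had a median log2 fold change of -0.04, against -0.02 over all genes. The 2 were the inhibitors *Irak3* (1.49 ± 0.32, adjusted p = 0.0129) and *Tnfaip3* (1.33 ± 0.26, adjusted p = 0.00959), both of which restrain this signalling. Both were also the 2 called lower with SC-435, by 1.07 ± 0.32 and 1.24 ± 0.28 (adjusted p = 0.0439 and 0.0153; 3.7% of all genes). The next in size, *Tab1* (0.42 ± 0.18) and *Chuk* (-0.37 ± 0.11), were not called (adjusted p = 0.151 and 0.0521). *Tnfaip3* was the 1 gene of the list called in males, at 2.30 ± 0.56 CPM in WT and 16.1 ± 6.5 CPM in KO mice on chow (2.83 ± 0.33, adjusted p = 0.00949), where 0.914% of all genes were called higher.

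Antibody receptors of other families gave 0 calls among 8 of 11 genes tested in females on chow (5.67% of all genes were called higher and 1.01% lower) and 0 with SC-435 (2.11% and 3.7%). *Fcgrt*, the neonatal Fc receptor, went from 205 ± 21 to 160 ± 11 CPM (-0.36 ± 0.11, adjusted p = 0.0462, short of the fold limit). *Pigr*, the transporter of polymeric immunoglobulin, stayed at 1924 ± 226 against 1825 ± 317 CPM (-0.08 ± 0.15, adjusted p = 0.747), and *Trim21*, a cytosolic Fc receptor, had 0.14 ± 0.10 (adjusted p = 0.39). Of 7 immunoglobulin heavy chain and J chain genes, 4 could be tested and 0 were called between female KO and WT mice on chow, while 2 were called lower with SC-435 (3.7% of all genes), *Igha* by 2.17 ± 0.39 (adjusted p = 0.00697). In males *Ighm*, the IgM heavy chain, was higher in KO mice on SC-435 (21.1 ± 10.8 CPM) than on chow (6.22 ± 1.76 CPM, log2 fold change 1.77 ± 0.405, adjusted p = 0.0209), the 1 gene of these 4 called in that comparison (1.88% of all genes were called higher).

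The mean profile of the 10 genes over the 8 groups, as log2(CPM + 0.5) centred for each gene, was compared with 11726 genes whose mean count was 50 or more. The nearest by root mean square difference were *Slfn2* (0.0582), *Lpxn* (0.0675), *Laptm5* (0.0730), *Rasa4* (0.0743) and *Evi2a* (0.0781), of which *Laptm5* is also on the list of leukocyte markers. Among the 10 genes themselves *Fcgr1* (0.0726) and *Fcer1g* (0.0916) lay nearest to the mean profile and *Fcgr2b* (0.517), *Clec7a* (0.514) and *Cd14* (0.471) farthest from it.

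**Figure D5:**
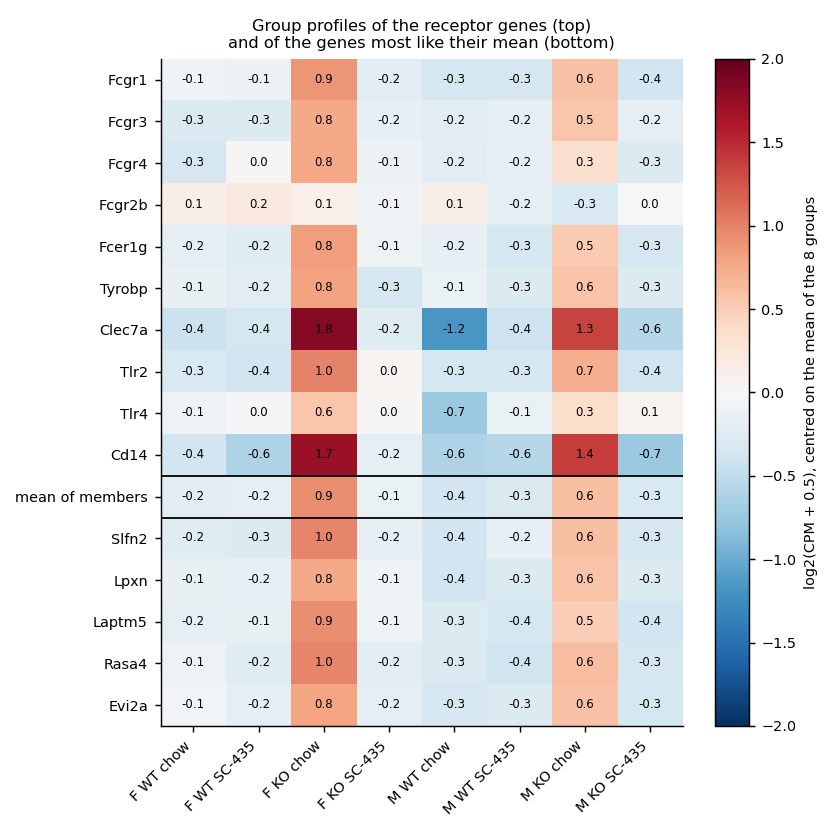
Group means of log2(CPM + 0.5), centred on the mean of the 8 groups for each gene (colour and number), for the 10 genes, their mean and the 5 genes nearest to that mean. The columns for KO mice on chow reach 0.93 (female) and 0.60 (male) in the mean profile, with 1.82 and 1.35 for *Clec7a* and 0.11 and -0.31 for *Fcgr2b*.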

How the data were processed

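Total RNA of 32 livers was sequenced from poly-A selected libraries. The deposited table holds raw counts per gene for each library; per the labels, the submitters' processing notes name HISAT2 2.0.5, featureCounts 1.5.0-p3, DESeq2 1.20.0, GATK 4.1.1.0 and mm10, without roles, and strandedness is not given in the sources used here. Its gene length was used only for CPM per kb. The 32 FPKM columns and the 35 columns of the authors' comparisons (fold changes and p-values) were not used.

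Each comparison of 4 against 4 mice was fitted across all genes with edgeR 4.0.16 (filterByExpr, TMM, glmQLFit, glmQLFTest; R 4.3.3) on the deposited counts, after the study's thresholds (Benjamini-Hochberg adjusted p under 0.05 and log2 fold change beyond 1). Interactions used the 16 libraries of 4 groups and adjusted p alone. The SE is the log2 fold change divided by the square root of F. DESeq2 1.42.0 and limma voom 3.58.1 were alternatives. The fitting scripts were tested on simulated data. Within groups no 2 libraries agreed within sampling noise (48 pairs, chi-square per gene of at least 20.3). Same replicate numbers deviated together only in male KO and WT mice on chow (correlations 0.101 to 0.193), where the block left 0 calls.

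Besides the 10 genes, the text names the 4 genes of each further list with the largest female KO against WT change at a mean of at least 50 counts, fewer where fewer qualified, and the 3 of the macrophage marker list. The genes and lists were chosen with earlier results of these data known. Library totals times TMM factors ran from 25646873 (male WT chow replicate 1) to 55442854 (male KO chow replicate 4). Counting error is smallest for *Fcgr2b* (1475 counts or more in each library) and largest for *Tlr4* (down to 4 counts). Promoter windows are from RefSeq, and motifs from GENCODE vM21.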

Additional observations from a re-analysis of the deposited data

Results flagged for a closer look

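Of 80 sets of 4 mice (10 genes in 8 groups), 4 held a mouse far from the other 3 by Dixon's test, which chance alone gives in about 1 of 20 sets. In male KO mice on chow replicate 4 had 16.9 CPM of *Fcgr1* (next 5.56 CPM) and 32.3 CPM of *Fcgr3* (next 10.1 CPM). This mouse was the highest of its group for 8 of the 10 genes. In male WT mice on chow replicate 4 had 3.27 CPM of *Tlr2* (next 2.38 CPM), and in male WT mice on SC-435 replicate 4 had 4.48 CPM of *Cd14* (next 2.502 CPM).

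The response to SC-435 differed between female KO and WT mice for 6 genes (interaction, edgeR). The log2 differences were -1.21 for *Fcgr1*, -1.43 for *Fcgr4*, -0.91 for *Fcer1g*, -1.09 for *Tyrobp*, -2.39 for *Clec7a* and -1.91 for *Cd14*.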

How the results depend on the processing

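In male KO against WT mice on chow the count of called genes moved from 0 to 1 with library size scaling. It was 1 without the filter, 2 with voom and 3 with DESeq2 or with the 4 male groups in 1 fit. Calls over all genes moved as well, from 145 higher to 764 with voom and 698 with DESeq2. They were 794 with the 4 male groups in 1 fit and 234 without the filter. With library size scaling they were 139, and with the replicate block, which kept the count at 0, they were 15. For SC-435 in male KO mice the count of called genes moved from 3 to 6 with DESeq2. The lower calls over all genes moved there from 730 to 1023. The interaction of genotype and SC-435 moved from 6 to 1 with the replicate block in females (*Clec7a*). In males it moved from 0 to 2 with DESeq2. Over all genes the block moved the female interaction from 145 higher and 300 lower to 80 and 135. DESeq2 moved the male interaction from 2 higher and 13 lower to 144 and 213. The block also took *Fcgr3* and *Fcgr4* from the calls for SC-435 in female KO mice (7 to 5). Over all genes the block moved the lower calls there from 604 to 408. It moved no other count of the genes described here. One library at a time was left out, and calls were counted among the genes described here. This gave 4 to 9 calls in female and 0 to 1 in male KO against WT mice on chow (1 when WT chow replicate 1 or replicate 2 of the KO chow group was left out). It gave 4 to 8 calls for SC-435 in female KO mice and 1 to 5 in male KO mice (5 without KO chow replicate 1, 1 without any 1 SC-435 mouse). For the interaction it gave 1 to 8 in females (1 when any of these was left out: replicates 1, 2 and 3 of KO with SC-435, 2 of KO on chow, 1 of WT with SC-435, 2 and 3 of WT on chow) and 0 to 1 in males (1 in the same pair of fits as above). All other comparisons kept 0 calls among the genes described here under each alternative run.

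*Fcgr2b* in females on chow (-0.04) was 0.15 with library size scaling and 0.0062 when genes needed 50 counts on average, and it ran from -0.089 to 0.048 when 1 library was left out, above 0 (0.016) also without WT chow replicate 2. Library size scaling moved the median over all genes there from -0.02 to 0.17. *Tlr4* for SC-435 in male KO mice (-0.43) ran from -0.633 to 0.030, above 0 only when KO chow replicate 4 was left out. Fits without 1 library have fewer samples, and other causes were not tested.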
